A study of Mus musculus with 6 samples.

Results

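The subunits of the respiratory chain and ATP synthase, encoded in the nucleus and in mitochondrial DNA, were examined in the ventral lumbar spinal cord of SOD1G93A mice. Members were chosen by gene name (Ndufa, Ndufb, Ndufc, Ndufs, Ndufv, Uqcr, Cox4i, Cox5, Cox6, Cox7, Cox8 and Atp5 genes, and the mt- genes for Nd, Co, Cytb and Atp subunits), without assembly factors and pseudogenes. A mean of at least 10 normalised read counts over the 6 libraries was required. Of 28162 genes in the table, 100 had such a name and 92 met the mean. These were 79 nuclear genes (37 of complex I, 8 of complex III, 17 of complex IV and 17 of complex V, the ATP synthase) and 13 mitochondrial genes (7, 1, 3 and 2 of the same complexes). All 92 passed the filter of the test. The 8 genes left out had means from 0.14 in Ndufa11b to 1.95 in Cox7b2 and 3 in Ndufb4c, and the lowest members were Cox7a1 (21.8), Cox4i2 (25.7) and Cox6a2 (27.0). Ndufa4 and Ndufa4l2 were counted in complex IV, where the protein of Ndufa4 is now placed.

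All 6 mice carried the SOD1G93A transgene, a mutant human superoxide dismutase 1 that causes motor neuron disease in mice. An adeno-associated virus (AAV) was injected intrathecally at postnatal day 74 and RNA was taken at day 104. The vector carried green fluorescent protein in the 3 control mice (AAV-GFP) and NDNF, a secreted neuron-derived neurotrophic factor, in the other 3 (AAV-NDNF). No group without the transgene or without a vector was part of the comparison, and the sources used here do not give sex, vector dose or vector promoter.

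The respiratory chain sits in the inner mitochondrial membrane. Complexes I, III and IV pass electrons from NADH to oxygen and pump protons out of the matrix, complex II feeds in electrons from succinate, and complex V uses the returning protons to make ATP. Complexes I, III, IV and V are built from subunits of both genomes, so the nuclear transcripts translated in the cytosol and the mitochondrial transcripts translated inside the organelle serve the same enzymes. Neurons depend on this supply for ion pumping and axonal transport, and swollen, vacuolated mitochondria in motor neurons are a known feature of SOD1G93A mice.

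Normalised counts are reads per gene divided by a size factor for each library. A log2 fold change is the mean log2(normalised count + 1) of the AAV-NDNF libraries minus that of the controls, and a score is the mean of that log2 level over a set of genes minus its AAV-GFP mean. Libraries held 15335789 to 20060987 reads on genes. AAV-GFP 2 and AAV-NDNF 3 lay at the ends of the first principal component of all tested genes (40.3 and -52.0, the others between -1.76 and 16.5). AAV-NDNF 3 also had the lowest Ndnf of its group, at 674 normalised counts beside 5286 and 7077 in AAV-NDNF 1 and 2 and 128 to 171 in controls. The dorsal horn neuron score was -1.59 in AAV-GFP 2 and -0.25 to 0.83 elsewhere. Oligodendrocyte, astrocyte and neuron markers were high in every library, summing to at least 521524, 166268 and 161078 normalised counts, and motor neuron markers summed to 6108 to 7419. Of the 6 muscle markers, the actin Acta1, the creatine kinase Ckm, Tnnt3, Myh1 and Mb stayed at or under 10.1 normalised counts. The sixth, Pvalb, which interneurons also express, was 1127, 1136 and 1161 against 1047, 1213 and 1988, lowest in AAV-NDNF 1 and highest in AAV-NDNF 3 like most subunits.

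No subunit passed the test of AAV-NDNF against AAV-GFP. In limma with Benjamini-Hochberg adjustment over 17480 genes, 0 of 92 members had an adjusted p under 0.05 (smallest 0.997), as did 0 of all tested genes (0%), and edgeR on the recovered reads called 0 members as well. At an unadjusted p under 0.05 neither limma nor edgeR had a member, where limma had 1.15% of all tested genes higher and 3.53% lower. The authors' deposited table, from DESeq2, gave an adjusted p to all 92 members, none under 0.05 (smallest 0.952), where 0.266% of its 20315 genes with an adjusted p were under it. Only Uqcrc1 had every AAV-NDNF library above every control (4.26% of all tested genes did) and only Ndufa4l2 every AAV-NDNF library below (5.5%).

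The fold changes leaned upward by a small amount. Of 92 members 66 were above 0, with a median of 0.08, while the median of all tested genes was 0.0008 and 50.1% of them were above 0. Nuclear subunits had a median of 0.07 (55 of 79 above 0) and ranged from -0.43 in Ndufa4l2 to 0.31 in Ndufb1. Mitochondrial subunits had a median of 0.12 (11 of 13 above 0), from -0.23 in mt-Atp6 to 0.48 in mt-Nd6. The median was 0.06 for 5 genes that share nearly all of their sequence with nuclear copies, mt-Atp6 among them (below). It was 0.17 for the 7 others apart from mt-Atp8. That lean turned with single libraries. Without AAV-NDNF 3 the nuclear median was -0.16 with 10 of 79 above 0. The mitochondrial median was then 0.02 with 8 of 13 above 0 (-0.11 for those 5 genes and 0.04 for those 7). Without AAV-NDNF 1 the medians were 0.23 (76 of 79) and 0.33 (13 of 13). Without AAV-GFP 2 they were 0.01 (41 of 79) and 0.001 (7 of 13). Other scalings kept the nuclear median between 0.04 and 0.07, while limma-voom with quality weights, which lets noisier libraries count for less, gave -0.05. The count at an unadjusted p in limma turned with the library left out. It was 18 members higher without AAV-NDNF 1, where 3.23% of all tested genes were, and 11 members lower without AAV-NDNF 3, where 4.45% were. With both AAV-GFP 2 and AAV-NDNF 3 left out 27 were lower, beside 6.99% of all tested genes. DESeq2 had 1 member higher (1.03% of all tested genes) and limma-voom 3 lower (8.34%). Fewer cells of a type and less RNA per cell cannot be told apart in bulk tissue.

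**Figure D1:**
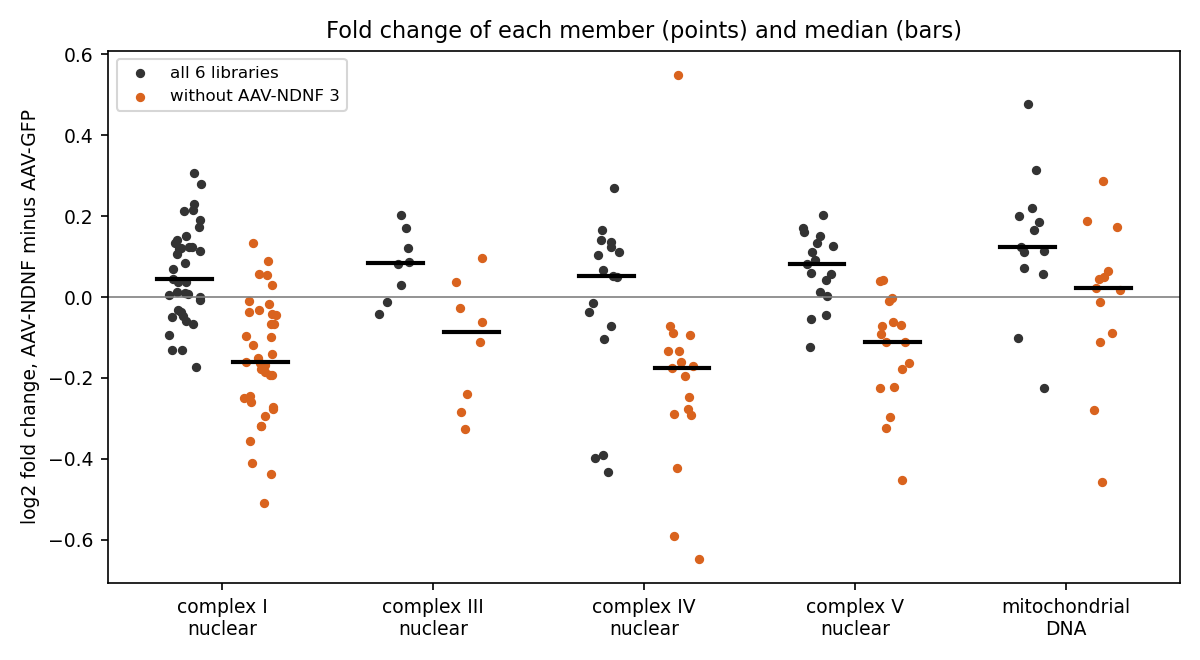
Log2 fold change (AAV-NDNF minus AAV-GFP, y axis) of each member as a point, by genome and complex, in all 6 libraries (dark) and without AAV-NDNF 3 (orange), with the median as a bar. The nuclear medians lie between 0.05 and 0.08 in all libraries and between -0.18 and -0.09 without AAV-NDNF 3.

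The nuclear subunits varied together from library to library. Their score was 0.10, -0.12 and 0.02 in AAV-GFP 1 to 3 and -0.29, -0.02 and 0.46 in AAV-NDNF 1 to 3, so the AAV-NDNF group held both the lowest and the highest value and the controls lay between them. AAV-NDNF 3 was the highest library for 73 of 79 nuclear subunits, where it was highest for 26.4% of all tested genes, and AAV-NDNF 1 was the lowest for 63 (17.7% of all tested genes). Both held for 59 nuclear subunits (74.7%), beside 9.45% of all tested genes. AAV-NDNF 3 stood a median of 1.47-fold above the mean of the other 5 libraries, from 0.664 in Cox7a1 to 1.91 in Ndufc1. Against AAV-NDNF 1 it stood a median of 1.75-fold higher, up to 2.74 in Ndufa2. The 6 nuclear subunits with another highest library were Ndufb2 and 5 scarce or tissue-restricted complex IV subunits (Cox4i2, Cox6a2, Cox6b2, Cox7a1 and Ndufa4l2).

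The 4 nuclear complexes had the same lowest and highest library. In complex I the score ran from -0.30 in AAV-NDNF 1 to 0.49 in AAV-NDNF 3, in complex III from -0.24 to 0.47, in complex IV from -0.35 to 0.36 and in complex V from -0.25 to 0.48. The controls kept within -0.15 to 0.14 in each complex. The SD of the log2 level was larger in the AAV-NDNF group for 77 of 79 nuclear subunits (97.5%, against 60.5% of all tested genes), with a median of 0.42 beside 0.15 in controls.

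**Figure D2:**
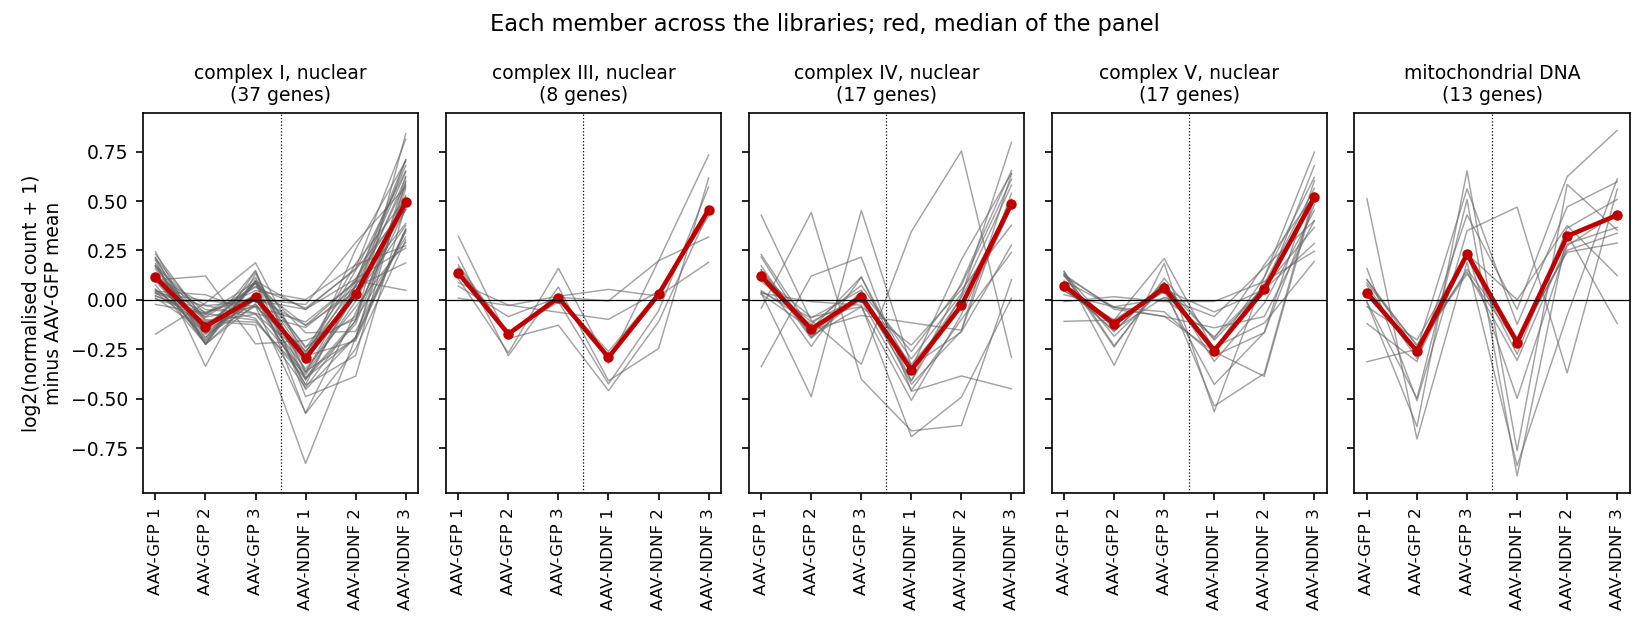
Log2 level of each member minus its AAV-GFP mean (y axis) in the 6 libraries (x axis), 1 grey line per gene and the panel median in red. Lines only join the values of 1 gene, since libraries have no order. In the nuclear panels AAV-NDNF 1 is low and AAV-NDNF 3 high, beside controls near 0.

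The same lowest and highest library appeared outside the respiratory chain. Cytosolic ribosomal proteins, which make up the ribosome that translates nuclear messages, scored 0.13, -0.19 and 0.06 in AAV-GFP 1 to 3 and -0.45, -0.14 and 0.36 in AAV-NDNF 1 to 3, and AAV-NDNF 3 was highest for 76 of 78 and AAV-NDNF 1 lowest for 71. Mitochondrial ribosomal proteins scored 0.05, -0.10 and 0.05 in AAV-GFP 1 to 3 and -0.22, -0.01 and 0.33 in AAV-NDNF 1 to 3. For these AAV-NDNF 3 was highest for 67 of 77, while AAV-NDNF 1 was lowest for 44 and AAV-GFP 2 for 21. Transcript length went with it too. Among other tested protein-coding genes with a transcript under 1 kb (825 genes) the median log2 level relative to the mean of the libraries was 0.34 in AAV-NDNF 3 and -0.25 in AAV-NDNF 1. In those of 4 kb and over (4335 genes) it was -0.16 and 0.11. Nuclear subunits are short, 53 of the 75 with a transcript length being under 1 kb, and those 53 stood at 0.49 and -0.36 in the same libraries, while the 19 of 1 to 2 kb stood at 0.34 and -0.28. Across the 14201 other genes Spearman's rho of length with the level was -0.47 in AAV-NDNF 3 and 0.43 in AAV-NDNF 1 (across the 75 subunits, -0.32 and 0.41). Neuron markers scored -0.21 to 0.12 in controls and 0.06, 0.20 and 0.27 in AAV-NDNF 1 to 3 (8 of 8 above 0, median 0.16, sums of 161078 to 166873 and 167033 to 197227 normalised counts). Score and sum ranked the controls differently, since AAV-GFP 2 had the lowest neuron score but the highest control sum. Microglia markers scored -0.01 to 0.03 and -0.34, -0.38 and -0.23 (0 of 6 above 0, median -0.33, sums of 14319 to 14719 and 10601 to 11958). Astrocyte markers scored -0.08 to 0.11 and -0.05, -0.18 and -0.20 (0 of 6 above 0, median -0.11, sums of 190347 to 234495 and 166268 to 190889). Endothelial markers scored -0.05 to 0.07 and -0.01, 0.09 and -0.39 (1 of 5 above 0, median -0.11, sums of 3479.9 to 3780.1 and 2816 to 3744), with AAV-NDNF 3 lowest for 4 of 5. These describe single libraries across genes, which share depth and scaling. The part of length and of these cell types in the subunits' levels was not tested, and the length bins were chosen after the data were seen.

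**Figure D3:**
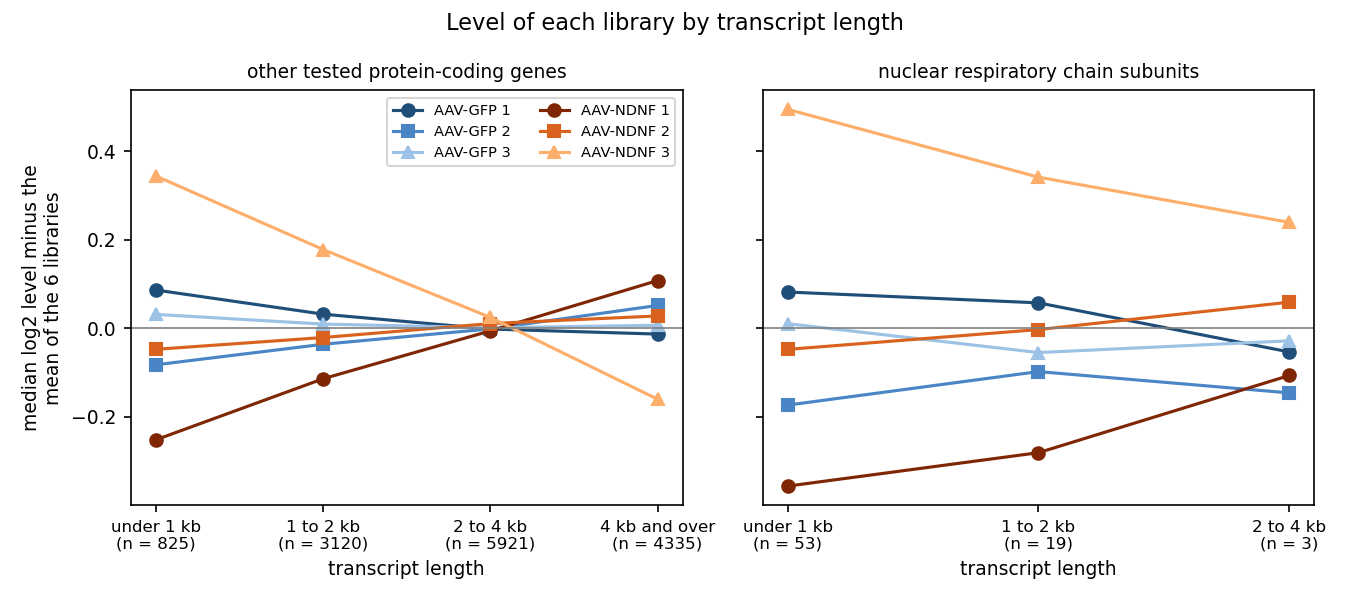
Median log2 level of each library minus the mean of the 6 libraries (y axis) by transcript length (x axis), for other tested protein-coding genes (left) and nuclear subunits (right), with the number of genes under each bin. AAV-NDNF 3 and AAV-NDNF 1 part in opposite directions at short lengths, to 0.34 and -0.25 on the left and 0.49 and -0.36 on the right.

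**Figure D4:**
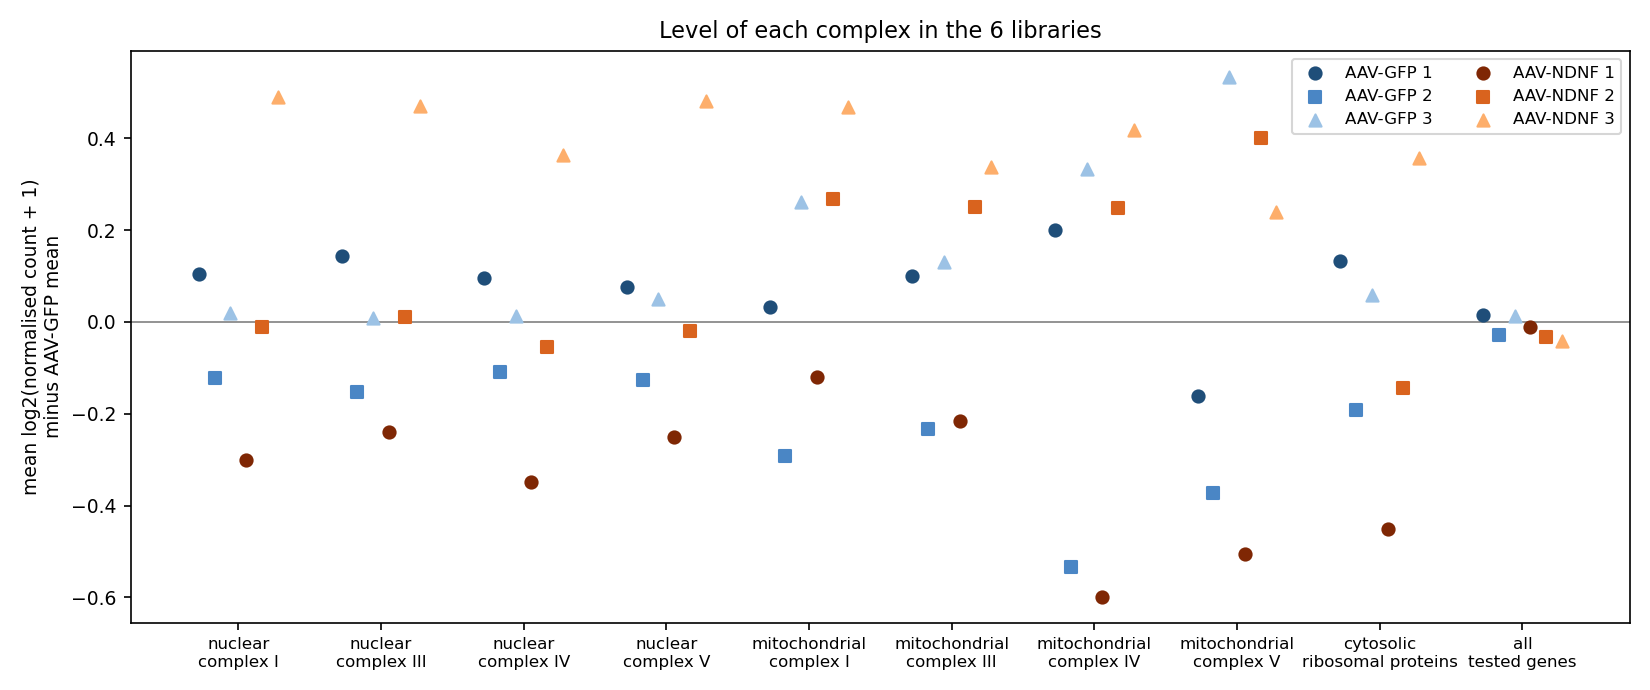
Score of each complex (y axis, mean log2 level minus the AAV-GFP mean) in the 6 libraries, by genome, with cytosolic ribosomal proteins and all tested genes for comparison. For nuclear complexes AAV-NDNF 1 is lowest and AAV-NDNF 3 highest, while in mitochondrial complexes AAV-GFP 2 also lies low. The mitochondrial scores of complexes I, III, IV and V rest on 7, 1, 3 and 2 genes. Among these mt-Nd3, mt-Nd4l, mt-Co2, mt-Co3, mt-Atp6 and mt-Atp8 have uncertain counts.

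The promoters of the nuclear subunits were searched for cores of factors tied to the respiratory chain. NRF1 and GABPA (an ETS factor) are transcription factors known to act at many respiratory chain promoters. RefSeq promoters (GRCm38.p6, 250 bases before to 50 after the start) were found for 65 of the 79 nuclear subunits and searched on both strands. A gene was counted when any of its promoters held the core, so genes with several promoters had more chances of a match. The NRF1 core GCGCANGCG was in 18 of 65 genes (27.7%), compared with 7.03% of all 27025 genes with a promoter and 13.3% of the 12419 tested genes among them. It was in 8 of 33 genes of complex I, 2 of 5 of complex III, 1 of 12 of complex IV and 7 of 15 of complex V. The ETS core CCGGAAG was in 15 of 65 (23.1%, against 9.93% and 17.4%), the YY1 core AAGATGGCG in 7 (10.8%, against 1.64% and 3.01%) and the Sp1 box GGGCGG in 26 (40%, against 38.2% and 65.1%). The NRF1 core is close to its own reverse complement, so matches on the 2 strands can overlap, and the GGGCGG and ETS counts were made without regard to overlap with other cores. A match is a description of letters, not a bound site. Any link between these cores and the differences between libraries was not tested. The 150 bases before the start are printed for the 4 subunits with either both cores or a pair of separate NRF1 cores there, on the minus strand of each chromosome, 5′ to 3′ in the direction of transcription, with the cores in capitals. These are Atp5h (chr11:115419920-115420069, NRF1 core starting 141 and ETS core 38 bases before the start), Cox6a1 (chr5:115348959-115349108, 117 and 16), Ndufa8 (chr2:36049339-36049488, NRF1 cores at 29 and 9) and Ndufb4 (chr16:37654369-37654518, at 79 and 22). In GENCODE M21 the same genes start further upstream, at 115419962, 115348981, 36049406 and 37654453. By that annotation the ETS cores and the NRF1 cores of Ndufa8 and Ndufb4 lie inside the genes.
Atp5h: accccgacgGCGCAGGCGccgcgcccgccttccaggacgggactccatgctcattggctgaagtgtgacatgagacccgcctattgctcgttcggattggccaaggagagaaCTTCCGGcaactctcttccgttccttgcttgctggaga
Cox6a1: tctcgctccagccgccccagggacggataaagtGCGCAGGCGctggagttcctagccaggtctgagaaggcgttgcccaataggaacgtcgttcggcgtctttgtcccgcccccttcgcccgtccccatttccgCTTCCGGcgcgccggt
Ndufa8: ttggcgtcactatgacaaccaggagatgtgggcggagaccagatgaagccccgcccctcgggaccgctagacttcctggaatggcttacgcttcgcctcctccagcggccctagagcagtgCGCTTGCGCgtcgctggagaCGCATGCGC
Ndufb4: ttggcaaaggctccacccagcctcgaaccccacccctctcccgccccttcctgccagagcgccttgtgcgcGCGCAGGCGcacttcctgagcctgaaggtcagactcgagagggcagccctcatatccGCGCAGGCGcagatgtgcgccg
Of the transcripts behind these promoters 3 were lowest in AAV-NDNF 1, as were 63 of all 79 nuclear subunits. Atp5h, a stalk subunit of ATP synthase, was 2599.7, 2214 and 2631 in the AAV-GFP libraries and 2061, 2617 and 3659 in the AAV-NDNF libraries and is uncertain because 50.5% of its 50-base words occur in other annotated transcripts. Cox6a1, the broadly expressed form of a complex IV subunit, was 3742, 3329 and 3811 against 2945, 3701 and 5414. Ndufa8, an accessory subunit of complex I, was 1142, 887 and 1021 against 925, 1080.04 and 1620.1. Ndufb4, another, was 813, 649 and 801 against 626, 787 and 1132. In all 4 AAV-NDNF 3 was highest, as in 73 of all 79 nuclear subunits, and Ndufa8 was lowest in AAV-GFP 2. The groups overlapped.

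In complex I, the NADH dehydrogenase, the 7 nuclear core subunits, among them those that hold the flavin and iron-sulphur clusters, were all above 0 (median log2 fold change 0.12), although Ndufv1 was at -0.02 with scaling by total reads. Of the accessory subunits 18 of 30 were above 0 (median 0.02). The scores of the core set were 0.03, -0.07 and 0.03 in AAV-GFP 1 to 3 and -0.14, 0.06 and 0.44 in AAV-NDNF 1 to 3. Ndufs1, the largest iron-sulphur subunit, was 2639, 2478 and 2685 in the AAV-GFP libraries and 2603, 2939 and 3143 in the AAV-NDNF libraries (log2 fold change 0.15, SE 0.11). Only AAV-NDNF 2 and 3 exceeded every control, and AAV-NDNF 1 lay among them. Ndufv1, which binds NADH, was 2084, 2020 and 2253 against 1886, 1895 and 2687 (log2 fold change 0.01, SE 0.14), with AAV-NDNF 1 and 2 below every control. Among accessory subunits the smallest p belonged to Ndufb9, at 234, 199 and 217 against 213, 265 and 322 (log2 fold change 0.28, SE 0.18, limma unadjusted p = 0.152, adjusted p = 0.997). Ndufa10 was 2777, 2583 and 2865 against 2662, 3048 and 3765 (log2 fold change 0.19, SE 0.13). Ndufb1, a small membrane-arm subunit, had the lowest mean of the complex and the highest fold change of the nuclear subunits, at 130.3, 107 and 130.3 against 118, 136 and 215 (log2 fold change 0.31, SE 0.24). Its groups overlapped, with AAV-NDNF 1 below 2 controls.

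Across all 37 nuclear subunits of complex I the log2 fold change ran from -0.17 in Ndufa3 to 0.31 in Ndufb1, and AAV-NDNF 3 stood between 1.06-fold (Ndufb2) and 1.91-fold (Ndufc1) above the mean of the other libraries. AAV-NDNF 1 stood at -0.14 in the core score and -0.34 in the accessory score, and without AAV-NDNF 3 the core median was -0.04 and the accessory median -0.18. The difference between the core and accessory sets was not tested. Ndufa2, an accessory subunit, had the largest ratio of AAV-NDNF 3 to AAV-NDNF 1 among nuclear subunits, at 454, 359.6 and 355 against 218, 339 and 597. Ndufc1 was 327, 273 and 309 against 229.6, 280.4 and 541. Ndufb2 went another way, with AAV-GFP 3 highest, at 326, 364 and 419 against 299, 393 and 380.1.

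Complex III passes electrons from ubiquinol to cytochrome c. Uqcrc1 (chr9:108936633-108949623 in mm10), 1 of its core proteins, was 4575, 4460.2 and 4606 in the AAV-GFP libraries and 4718, 4608 and 5187 in the AAV-NDNF libraries (log2 fold change 0.09, SE 0.10). The AAV-NDNF libraries were above all controls, but AAV-NDNF 2 and AAV-GFP 3 were nearly level. Uqcrc2, the other core protein, was 3187, 2863 and 3063 against 3025, 3481 and 3785 (log2 fold change 0.17, SE 0.12), with AAV-NDNF 1 within the controls. Uqcrfs1, the Rieske iron-sulphur protein, was 1931, 1784 and 1739.97 against 1697, 1872 and 2435 (log2 fold change 0.12, SE 0.14). The small subunits Uqcrb, Uqcrh and Uqcr11 had log2 fold changes of 0.20, 0.03 and -0.04. Uqcrb was 976, 752 and 1013 against 726, 1039.5 and 1506, with AAV-NDNF 1 lowest of all and AAV-NDNF 3 highest. Uqcr11, the lowest of the complex by mean, was 473, 330.3 and 346 against 275, 350.3 and 515. Over the 8 nuclear subunits AAV-NDNF 3 stood from 1.13-fold (Uqcrc1) to 1.67-fold (Uqcrb) above the mean of the other libraries.

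Complex IV, cytochrome c oxidase, hands the electrons to oxygen, and several of its nuclear subunits exist in forms made in different tissues. The form made in most tissues was the main one here. Per kb of transcript, Cox4i1 averaged 8838 normalised counts and Cox4i2, its hypoxia and lung form, 35.4, or 0.295% to 0.675% of the pair. Cox6a1 averaged 6697 and Cox6a2, the heart and muscle form, 39.7, or 0.473% to 0.758%. Cox7a2 averaged 1635 and Cox7a1, another heart and muscle form, 55.5, or 1.61% to 5.68%. Cox6b2, a testis form, made up 1.91% to 3.36% of its pair with Cox6b1. The muscle form Cox8b averaged 0.595 normalised counts and was left out.

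The common forms Cox4i1, Cox5a and Cox8a were lowest in AAV-NDNF 1 and highest in AAV-NDNF 3. Cox4i1 was 6791, 5894 and 6435 in the AAV-GFP libraries and 5077, 6241 and 9064 in the AAV-NDNF libraries (log2 fold change 0.05, SE 0.18). Cox5a was 1659.6, 1439 and 1492 against 1304, 1583 and 1985 (log2 fold change 0.07, SE 0.15). Cox8a, a small membrane subunit, was 2797, 2188 and 2787 against 2014, 2597 and 3606 (log2 fold change 0.05, SE 0.19). In all 3 the AAV-NDNF 2 library lay within the controls. Cox7a2l, a factor that joins complexes III and IV into supercomplexes, was 2599.7, 2108 and 2337 against 1706, 2186 and 2764 (log2 fold change -0.10, SE 0.16). The scarce forms had other highest libraries. Cox4i2 was 27.7, 39.1 and 21.4 against 17.7, 18 and 30.7 (log2 fold change -0.40, SE 0.41), highest in AAV-GFP 2. Cox6a2 was 31.2, 30.3 and 29.9 against 18.5, 21.4 and 30.7 (log2 fold change -0.39, SE 0.36), highest in AAV-GFP 1. Cox7a1 was 25.9, 17.6 and 15 against 24.4, 32.7 and 15.3 (log2 fold change 0.27, SE 0.44), highest in AAV-NDNF 2. Counting error alone is large at such levels. Ndufa4l2 (chr10:127514967-127517154), a hypoxia-induced relative of Ndufa4, was 65.2, 89.9 and 96.1 against 59.7, 63.1 and 60.2 (log2 fold change -0.43, SE 0.25, limma unadjusted p = 0.112, adjusted p = 0.997). All 3 AAV-NDNF libraries were below the controls, the nearest being AAV-GFP 1 and AAV-NDNF 2. Ndufa4 itself was 2882, 2266 and 2670.3 against 2164, 2731 and 3958 (log2 fold change 0.14, SE 0.19), with AAV-NDNF 1 lowest and AAV-NDNF 3 highest.

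Complex V showed the smallest spread among controls (median SD 0.12 on the log2 scale, beside 0.16 to 0.18 in the other nuclear complexes). Atp5b, the catalytic beta subunit and by mean the highest nuclear member, was 17465, 17763 and 17462 in the AAV-GFP libraries and 17472, 18730.1 and 20831 in the AAV-NDNF libraries (log2 fold change 0.11, SE 0.11). AAV-NDNF 1 lay within the controls and AAV-NDNF 2 and 3 above them. Atp5c1, the gamma subunit of the rotor, was 3425, 2809.6 and 3146 against 2940.3, 3490.1 and 4112 (log2 fold change 0.16, SE 0.14). Atp5pb, the peripheral stalk b subunit, was 4773, 4177 and 4831 against 4003, 5184 and 6609.6 (log2 fold change 0.17, SE 0.16). In both only AAV-NDNF 2 and 3 lay above every control. Atp5j2, a membrane subunit, was 1659, 1457 and 1625 against 1173, 1408 and 2396 (log2 fold change 0.00, SE 0.21), a value below 0 with TMM or total read scaling. Over the 17 subunits the log2 fold change ran from -0.12 in Atp5e to 0.20 in Atp5mpl. The 3 genes for the c subunit, which make the same mature protein, took similar shares per kb. Atp5g3 gave 34.4% to 38.6%, Atp5g1 35.4% to 38.7% and Atp5g2 24.1% to 29.3% over the libraries. The last 2 are uncertain, since 66.0% and 100% of their 50-base words also occur in other annotated transcripts.

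All 13 mitochondrial genes are transcribed from the circular mitochondrial DNA as long precursors and then cut, so their levels within a strand share an origin. Together they took 4.97% to 7.33% of reads, and their sum was 6.69 to 8.88 times the sum of the nuclear subunits. These totals and the ratios below are uncertain, since 5 of the genes share nearly all of their sequence with nuclear copies (below). Their score was 0.05, -0.36 and 0.31 in AAV-GFP 1 to 3 and -0.30, 0.28 and 0.41 in AAV-NDNF 1 to 3. AAV-GFP 2 and AAV-NDNF 1 were the low libraries, the other 4 were above the control mean, and the groups overlapped. AAV-GFP 2 was lowest for 7 of the 13 and AAV-NDNF 1 for 5, whereas AAV-NDNF 3 was highest for 10. The exceptions were mt-Nd5, highest in AAV-NDNF 2, and mt-Co2 and mt-Atp6, highest in AAV-GFP 3. Red blood cell markers (5 genes, 2 tested) were near 0 and also lowest in those 2 low libraries, summing to 42, 16.6 and 41.7 normalised counts in controls and 5.05, 32.7 and 29.6 in AAV-NDNF 1 to 3. Oligodendrocyte markers scored 0.27 in AAV-GFP 2, -0.13 and -0.14 in the other controls and -0.04 to 0.09 in the AAV-NDNF libraries, and AAV-GFP 2 was highest for 7 of 8. Their sum was 718661 normalised counts there and 521524 to 583617 elsewhere. The part of either cell type in the mitochondrial levels was not tested. The ratio of mitochondrial to nuclear sums was 7.48, 6.69 and 8.30 in AAV-GFP 1 to 3 and 7.43, 8.88 and 7.01 in AAV-NDNF 1 to 3, so AAV-NDNF 3, the highest in both scores, had the second lowest ratio.

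The subunits of complex I lie in several places on the circle. mt-Nd6 (chrM:13552-14070, minus strand), a membrane subunit, had the smallest p of any member. It was 19806, 17340.5 and 28992 in the AAV-GFP libraries and 20815, 33138 and 38976 in the AAV-NDNF libraries (log2 fold change 0.48, SE 0.23, limma unadjusted p = 0.0671, adjusted p = 0.997). AAV-NDNF 2 and 3 were above every control, and AAV-NDNF 1 was below AAV-GFP 3. It is the only member on that strand, and with the counting's strand setting not given here, reads of transcripts on the other strand cannot be told from it. mt-Nd1 (chrM:2751-3707) was 118131, 91383 and 130942 against 92809, 144400 and 159620 (log2 fold change 0.20, SE 0.20). mt-Nd2 (chrM:3914-4951) was 85050.1, 69747 and 96005 against 72556, 103671 and 111563 (log2 fold change 0.19, SE 0.17). Their order of libraries was the same. mt-Nd4 (chrM:10167-11544) was 80858, 65096 and 84085 against 61657, 92716 and 98303 (log2 fold change 0.11, SE 0.18). mt-Nd5 (chrM:11742-13565) was 98099, 81040.4 and 113591 against 96715, 125403 and 105278 (log2 fold change 0.17, SE 0.15). These 4 proton-pumping or quinone-site subunits had AAV-GFP 2 and AAV-NDNF 1 as their lowest 2 libraries.

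mt-Cytb (chrM:14145-15288), the cytochrome b of complex III, was 171326, 135955 and 174937 in the AAV-GFP libraries and 137579, 190059 and 201810 in the AAV-NDNF libraries (log2 fold change 0.12, SE 0.16). mt-Co1 (chrM:5328-6872), the catalytic subunit of complex IV, was the highest member at 308108 normalised counts per kb. It held 43.2% to 45.5% of the mitochondrial subunit counts in each library, a total that includes 5 genes with uncertain counts (below). The values of mt-Co1 were 487148, 378959 and 505096 against 395525, 535923 and 553509 (log2 fold change 0.11, SE 0.16). In both AAV-GFP 2 and AAV-NDNF 1 were the lowest and AAV-NDNF 3 the highest.

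A further 5 mitochondrial genes had far lower counts, and each has a near-copy in the nuclear genome. For mt-Co2, mt-Co3, mt-Atp6, mt-Nd3 and mt-Nd4l, 98.0% to 100% of 50-base words also occur in annotated transcripts of other genes, above all pseudogenes on chromosome 1. They averaged 1064 to 5308 normalised counts per kb, against 51082 to 308108 for the 7 others apart from mt-Atp8 (147 per kb), so their counts are uncertain. Smaller shares were found for mt-Nd4 (62.2%) and mt-Co1 (51.1%). mt-Co2 (chrM:7013-7696) was 3287, 2128 and 5211 against 1956, 4968 and 4235 (log2 fold change 0.06, SE 0.44). Its copy Gm28661 was 1752, 1360.3 and 1742 against 1169, 1965 and 3054. mt-Atp6 (chrM:7927-8607) was 2767, 1973 and 3958 against 1504, 3507 and 2564 (log2 fold change -0.23, SE 0.34), whereas its copy Gm10925 was 2605, 1941 and 2521 against 2104, 2969.8 and 5729. Of the pair's counts 30.9% to 61.1% were on mt-Atp6. Added together the pair gave 5372, 3914 and 6479 against 3608, 6477 and 8293, with AAV-NDNF 3 highest and a mean log2 difference of 0.17 where mt-Atp6 alone had -0.23. For each of the 5 genes the sum with its copy was highest in AAV-NDNF 3. These sums were formed after the values were seen.

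mt-Co3 (chrM:8607-9390) was 2642, 1139 and 2117 against 1037, 1755 and 2835 (log2 fold change -0.10, SE 0.44), the second mitochondrial gene below 0, and its sum with the copy Gm28437 differed by -0.06. mt-Nd3 (chrM:9459-9806) was 345, 307 and 415 against 249.8, 427 and 479 (log2 fold change 0.07, SE 0.23). mt-Nd4l (chrM:9877-10173) was 678, 426 and 773 against 840.2, 469.6 and 895 (log2 fold change 0.22, SE 0.26). mt-Atp8 (chrM:7766-7969), which overlaps the start of mt-Atp6, was 20.5, 21.5 and 38.5 against 23.5, 36 and 39.4 (log2 fold change 0.31, SE 0.39) and shares none of its words with other annotated genes. The search covered annotated transcripts only, and mt-Atp8 was the lowest mitochondrial gene at 147 per kb, so its count is uncertain too. In these low genes AAV-NDNF 1 or AAV-GFP 1 or 2 was lowest, and the groups overlapped in each.

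**Figure D5:**
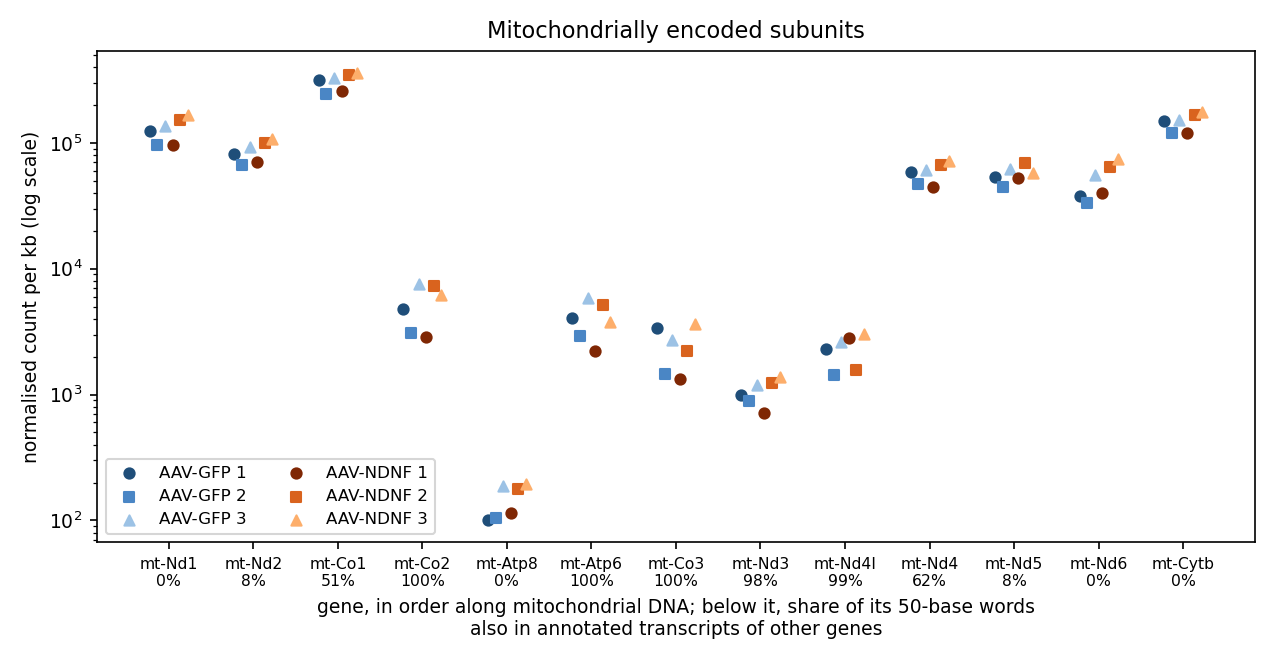
Normalised count per kb (y axis, log scale) of the 13 mitochondrial genes in each library, in their order along mitochondrial DNA (x axis), with the share of 50-base words found in other annotated genes under each name. The 5 genes with a share of 98% or more lie between 1064 and 5308 per kb on average, and mt-Co1 is highest at 308108.

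Among genes that serve the chain without being part of these 92, most lists leaned upward as the subunits did, and for several that lean turned without AAV-NDNF 3. All 4 complex II subunits were above 0 (median 0.05), but 1 of 4 was without AAV-NDNF 3 (median -0.10). Sdha, its flavoprotein, was 9535, 8667 and 9182 in the AAV-GFP libraries and 9161, 9596 and 10362 in the AAV-NDNF libraries (log2 fold change 0.09, SE 0.10). Sdhb, an iron-sulphur subunit, was 1658, 1531 and 1515 against 1331, 1565 and 2032 (log2 fold change 0.05, SE 0.15). Both were highest in AAV-NDNF 3. The pair of cytochromes c and c1 had a median of 0.12, and of -0.02 without AAV-NDNF 3. Cycs (cytochrome c) was 2399, 2175 and 2639 against 2230.5, 2527 and 3329 (log2 fold change 0.15, SE 0.15). Cyc1 (cytochrome c1) was 1996, 2004 and 2049.7 against 1859, 2106 and 2561 (log2 fold change 0.10, SE 0.13). Of 16 tricarboxylic acid cycle genes, which supply the electrons, 14 were above 0 (median 0.09; 13 and 0.04 without AAV-NDNF 3), and the smallest p was that of Fh1 (fumarase), at 1314, 1193 and 1211 against 1278, 1372 and 1830.4 (log2 fold change 0.25, SE 0.14). No gene of these lists had an unadjusted p under 0.05 in limma, and AAV-NDNF 3 was highest for all 6 genes of the first 2 lists and for 11 of 16 of the cycle.

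Assembly factors stood at medians of 0.08 for complex I (11 of 16 above 0), 0.08 for complex III (5 of 6), 0.09 for complex IV (12 of 20) and 0.14 for ATP synthase (2 of 3). Without AAV-NDNF 3 the medians were -0.05 (6 of 16), 0.007 (3 of 6), -0.05 (8 of 20) and 0.04 (2 of 3). Timmdc1, which helps build complex I, was 331, 312 and 303 in the AAV-GFP libraries and 343, 399.8 and 371 in the AAV-NDNF libraries (log2 fold change 0.23, SE 0.14). Every AAV-NDNF library was above the controls. The same held for Lrpprc, which stabilises mitochondrial messages, at 1419, 1411 and 1270 against 1512, 1543 and 1585 (log2 fold change 0.18, SE 0.11). Of all tested genes 4.26% had such a gap above and 5.5% a gap below. The complex I and III lists each held 1 gene above and 0 below, and the complex IV list 1 of each. The gene below was Sco1, at 219, 217 and 225 against 207, 171 and 209 (log2 fold change -0.18, SE 0.16). Lyrm7, an assembly factor of complex III, was 159.8, 149 and 83.3 against 200.2, 145 and 163 (log2 fold change 0.42, SE 0.26). Atpaf1, of ATP synthase, was 1620.3, 1753 and 1668 against 1741, 1978 and 1828 (log2 fold change 0.14, SE 0.11). Of 13 outer membrane and import genes 12 were above 0 (median 0.07), or 5 of 13 without AAV-NDNF 3 (median -0.04) and 8 of 13 without AAV-GFP 2 (0.04), and the smallest p was that of the chaperone Hspa9, at 4092, 3981 and 4193 against 4199, 4963 and 5126 (log2 fold change 0.21, SE 0.11). Mitochondrial ribosomal proteins had a median of 0.05 (48 of 77 above 0), with Mrps31 at 0.26. That median was -0.09 (18 of 77) without AAV-NDNF 3, 0.19 (66 of 77) without AAV-NDNF 1 and 0.004 (40 of 77) without AAV-GFP 2. Cytosolic ribosomal proteins had a median of -0.07 (13 of 78 above 0), with Rpl10 at -0.28. It was 0.13 (68 of 78) without AAV-NDNF 1, 0.009 (41 of 78) without AAV-GFP 1 and -0.30 (1 of 78) without AAV-NDNF 3, so its sign turned with the library left out.

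The regulators of mitochondrial biogenesis (8 genes) held the 1 gene of these pathway lists with an unadjusted p under 0.05 in limma. Of all tested genes 1.15% were higher at that threshold and 3.53% lower. Lists with 0 such genes included the 77 mitochondrial and 78 cytosolic ribosomal proteins. Ppargc1a, which encodes the coactivator PGC-1 alpha, was 637, 713 and 681 in the AAV-GFP libraries and 942, 992 and 842 in the AAV-NDNF libraries. Every AAV-NDNF library was above every control, as for 4.26% of all tested genes. The log2 fold change was 0.45 (SE 0.12), with a limma unadjusted p of 0.00271 and an adjusted p of 0.530 over all genes. It passed the adjusted threshold with limma-voom (log2 fold change 0.54) and with both AAV-GFP 2 and AAV-NDNF 3 left out (log2 fold change 0.55). It did so in none of the other alternatives run. Its order of libraries was not that of the subunits, AAV-NDNF 3 being the lowest of its group. The other 7 regulators had log2 fold changes from -0.08 to 0.31. Nrf1, whose core was counted in the promoters, was 281, 272 and 314 against 349, 289 and 334, and Gabpa was 718, 791 and 770.1 against 747, 785 and 829, both with overlapping groups. The 12 genes of mitochondrial DNA and its transcription had a median of -0.03 (4 above 0). Tfam, which packages and transcribes mitochondrial DNA, was 687, 579 and 677 against 497, 760.2 and 792 (log2 fold change 0.05, SE 0.18). Polrmt, the mitochondrial RNA polymerase, was 546, 657 and 498 against 627, 535 and 485 (log2 fold change -0.04, SE 0.15). Polg2, an accessory subunit of the mitochondrial DNA polymerase, was 54.5, 60.6 and 71.6 against 47.1, 23.7 and 49.3 (log2 fold change -0.69, SE 0.34). For Polg2 every AAV-NDNF library lay below every control, as for 5.5% of all tested genes. Tfam was lowest in AAV-NDNF 1 and highest in AAV-NDNF 3, as most subunits were.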

How the data were processed

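Ventral lumbar cord RNA of 3 AAV-GFP and 3 AAV-NDNF mice was enriched for poly(A) tails and read on a NovaSeq instrument, per the labels' protocols. Tools named in the submitters' processing notes are cutadapt, HISAT2, HTSeq and DESeq2, with the build mm10. Their versions, the annotation and the strand setting are not given in the sources used here. The authors deposited a normalised signal per library, gene counts divided by a size factor. Each value was a whole multiple of 1 read (100%, tolerance 0.001), so reads were recovered. The same deposited table holds the authors' DESeq2 log2 fold changes, Wald score and p-values.

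Genes with at least 10 in at least 3 libraries (17480) were tested two-sided in limma (trend, robust variances) on log2(value + 1), with Benjamini-Hochberg adjustment, called under 0.05. p-values measure the spread between these libraries, described as biological replicates. No libraries agreed within counting noise. Alternatives covered scaling, pseudocount, filter, tool, block and libraries. The fit was tested on simulated counts in which genes varied independently. That test does not cover shifts shared by many genes of a library, as seen here.

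Members, gene lists and tests were chosen with earlier results of these data known. The text names every mitochondrial member, a list of core, tissue-form and pathway genes, the 2 smallest p per complex and genome, the smallest p of each pathway list, and the highest and lowest mean per complex. The values of 1 gene that this rule names are not reported here. Other genes it names (Ndufa2, Ndufc1, Ndufb2, Ndufb4, Ndufa8, Atp5h, Cox6b1, Cox6b2, Nrf1, Gabpa, Sco1, nuclear copies, markers and genes near the mean of 10) were chosen after their values were seen.

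Symbols were matched to GENCODE M21 (mm10) for coordinates and lengths (27595 of 28162, 88 of 92 members; Ndufb1, Atp5md, Atp5o and Atp5pb were not matched). Fits used limma 3.58.1, DESeq2 1.42.0 and edgeR 4.0.16 under R 4.3.3, and plots matplotlib 3.10.9.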

Additional observations from a re-analysis of the deposited data

How the results depend on the processing

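The count of called members was 0 under every alternative run: TMM, upper quartile and total read scaling, pseudocounts of 0.5 and 5, filters, edgeR, DESeq2, limma-voom with quality weights, the block, and leaving out libraries. Of all tested genes DESeq2 called 55, voom 167, the test with no filter 3, the fits without AAV-GFP 2, AAV-NDNF 3 or AAV-NDNF 1 called 43, 11 and 1, the fit without both AAV-GFP 2 and AAV-NDNF 3 called 257, and the other fits without the block 0. Scaling moved the median of all tested genes by at most 0.02 on the log2 scale. With DESeq2 and with the block 1 member, mt-Nd6, was higher at an unadjusted p (1.03% and 1.01% of all tested genes), and with voom 3 were lower (Ndufs6, Ndufb6 and Atp5e; 8.34% of all tested genes were). Leaving out 1 library gave 0 to 18 members higher and 0 to 11 lower. With AAV-GFP 2 and AAV-NDNF 3 both left out 27 were lower (6.99% of all tested genes), and the medians were -0.20 for nuclear complex III, -0.27 for nuclear complex IV and -0.10 for mitochondrial complex I. Voom gave a nuclear median of -0.05. Ppargc1a was called under voom (log2 fold change 0.54). Without those 2 libraries it was called too (log2 fold change 0.55), as was Rpl10 (log2 fold change -0.52). The cause of these changes was not tested.

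Replicate numbers did not pair the samples (correlations of deviations between same-numbered libraries -0.09, 0.05 and 0.08). With the replicate number as a block, 0 members and 6 of all tested genes were called, compared with 0 and 0 without it.

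Named genes whose log2 fold change took the other sign were as follows. Total read scaling gave Atp5g3 -0.0119, Atp5j2 -0.0197 and Ndufv1 -0.0171, and TMM gave Atp5j2 -0.0017. Voom gave Atp5g1 -0.0772, Atp5g3 -0.14, Atp5j2 -0.17, Cox4i1 -0.0693, Cox5a -0.0122, Cox6a1 -0.0074, Cox7a2 -0.15, Cox8a -0.0845, Ndufa4 -0.007, Ndufv1 -0.12, Polrmt 0.011, Sdhb -0.0297, Uqcrh -0.13 and mt-Nd4l -0.26. With AAV-GFP 2 and AAV-NDNF 3 left out it was Atp5c1 -0.035, Atp5g1 -0.13, Atp5g3 -0.24, Atp5j2 -0.35, Atp5pb -0.0759, Cox4i1 -0.23, Cox5a -0.13, Cox6a1 -0.19, Cox7a2 -0.21, Cox8a -0.29, Cyc1 -0.0319, Cycs -0.0837, Ndufa4 -0.19, Ndufb1 -0.0407, Ndufv1 -0.20, Polrmt 0.15, Sdhb -0.13, Tfam -0.15, Uqcrb -0.19, Uqcrfs1 -0.0404, Uqcrh -0.32, mt-Co1 -0.11, mt-Co2 -0.41, mt-Cytb -0.10, mt-Nd1 -0.10, mt-Nd2 -0.0592, mt-Nd3 -0.21, mt-Nd4 -0.13 and mt-Nd4l -0.20. Over the fits leaving out 1 library the ranges were Atp5g1 -0.11 to 0.16, Atp5g2 -0.18 to 0.0393, Atp5g3 -0.22 to 0.16, Atp5j2 -0.30 to 0.22, Atp5pb -0.0089 to 0.35, Cox4i1 -0.18 to 0.24, Cox5a -0.0881 to 0.21, Cox6a1 -0.13 to 0.31, Cox7a2 -0.13 to 0.26, Cox7a2l -0.28 to 0.0711, Cox8a -0.17 to 0.25, Cyc1 -0.0275 to 0.20, Cycs -0.0138 to 0.27, Ndufa4 -0.0931 to 0.34, Ndufv1 -0.16 to 0.0925, Polrmt -0.14 to 0.0658, Sdhb -0.12 to 0.19, Tfam -0.071 to 0.26, Uqcr11 -0.28 to 0.17, Uqcrb -0.0606 to 0.47, Uqcrfs1 -0.0275 to 0.23, Uqcrh -0.24 to 0.26, mt-Atp6 -0.50 to 0.11, mt-Co1 -0.019 to 0.26, mt-Co2 -0.26 to 0.47, mt-Co3 -0.46 to 0.27, mt-Nd3 -0.11 to 0.36, mt-Nd4 -0.0114 to 0.33 and mt-Nd4l -0.0342 to 0.51. Having 3 libraries a group limits precision, and counting error is largest for the scarce complex IV forms.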
